A study of Mus musculus with 2 samples.

Results

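The 5′ untranslated regions (5′UTRs) of protein-coding genes were examined for tags of Mbnl2, an RNA-binding protein, in quadriceps muscle. A 5′UTR was taken as the exon bases upstream of the start codon in protein-coding transcripts of the mouse GENCODE vM1 annotation (build mm9), less every base that is coding sequence (CDS) or 3′UTR in another transcript of the same strand. This gave 35467 5′UTR intervals in 19674 genes, out of 265103 intervals of 5′UTR, CDS and 3′UTR in 22361 genes. A tag is a unique crosslinked RNA fragment from HITS-CLIP, in which frozen tissue is irradiated with UV light, trimmed with RNase A and immunoprecipitated. A tag was counted at a 5′UTR when its midpoint lay there on the strand of the gene. Tags with at least 70% of a single reference base were left out. Counted in this way, the 5′UTRs held 604 tags in WT muscle and 1560 tags in Mbnl1-/- muscle (Mbnl1 KO). They fell in 996 of the 19674 genes, or 5.06%, with 418 genes in the WT table and 748 in the Mbnl1 KO table.

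Both groups were mice aged 15 to 16 weeks whose strain is labelled C57BL/6. The WT mice carried no modified allele, and the Mbnl1 KO mice were homozygous for an allele named for the deletion of exon 3 of Mbnl1, without any other agent or transgene. Mbnl2 was immunoprecipitated with the monoclonal antibody 3B4 after RNase A at 38.6 U/ml (high) or 0.0386 U/ml (low), and the tables do not tell these libraries apart. The 3 mice of each genotype are merged into 1 table, so these data give no spread between mice, and the genotypes were compared without a test. Intervals are exact 95% Clopper-Pearson intervals, cover counting error only and compare these libraries rather than the genotypes.

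Muscleblind-like proteins are zinc finger proteins that bind YGCY in RNA, where Y is C or U, and they regulate alternative splicing, localization and decay of muscle transcripts. In myotonic dystrophy they are sequestered by expanded CUG or CCUG repeats. The 5′UTR is the stretch that the small ribosomal subunit scans from the cap to the start codon, and its structured or protein-bound elements can set how often an mRNA is translated.

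The tallest sites are shown first, to show how far they hold the YGCY motif. Tags that overlapped on 1 strand were joined into sites, of which 58 held at least 5 tags. Among the 10 sites with the tallest summits over both tables, those printed here are given as the 30 bases around the summit, from the NCBIM37 (mm9) genome, 5′ to 3′ on the strand of the gene. Capitals mark YGCY, written as DNA with C or T at each Y, and overlapping matches were kept.
Fam193b, chr13:55671174-55671203, minus strand: ggatgaggacgaggcgtggcggaagatgcg
Ptp4a2 a, chr4:129516405-129516434, plus strand: tttaaattgcaagcgtattcttttaatgac
Ptp4a2 b, chr4:129516518-129516547, plus strand: aaaaggcTGCTtaaattttgtatgtagttg
Ptp4a2 c, chr4:129516714-129516743, plus strand: gtctttttaatgttttcTGCTgcggaacat
Actn2, chr13:12432795-12432824, minus strand: cgtctgtccatcccttgCGCTgTGCTCGCT
Txlnb, chr10:17516121-17516150, plus strand: cccTGCTGCCtgttccTGCTGCTGCTGCTg
Fam57b, chr7:133967490-133967519, plus strand: ctctctccctttctggcttggcaatccctt
2500003M10Rik, chr3:90310374-90310403, minus strand: tatCGCTtctaattgTGCTGCCcttggctg
Mllt11, chr3:95032474-95032503, minus strand: aggCGCTgagaggacgatgCGCTggggccc

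YGCY stood in 6 of the 10 windows. The Txlnb window held 6 matches, in which TGCT recurs as in a short CUG repeat, and the Actn2 and 2500003M10Rik windows held 3 each. Among the windows printed, those of Fam193b, Fam57b and the first Ptp4a2 site held none, although the Fam193b site was the tallest. The Fam193b and Mllt11 windows share the run gaggacga, and whether these tags came from those genes was not tested. Over all sites with at least 5 tags whose sequence was read, 35 of 55 windows, or 63.6%, held YGCY, and 41.4% of all 30-base windows centred on a 5′UTR base did so. In the 5′UTRs of tagged genes, weighted by their tags, 46.8% (WT) and 46.5% (Mbnl1 KO) of 31-base windows did so. A match is a description of the letters and does not mark a binding site.

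The tables differ in depth and make-up. The WT table rests on 5176203 reads and lists 343554 tags, and for Mbnl1 KO 50329234 reads gave 476543 tags. On assembled chromosomes the filter on single bases removed 44.0% of the WT table and 17% of the Mbnl1 KO table, which left 188766 and 392681 tags as the totals for scaling. The 5′UTRs lost 59 WT and 36 Mbnl1 KO tags to this filter. The remaining 5′UTR tags rested on 14010 WT and 245379 Mbnl1 KO reads, with a median of 1 read per tag in WT and 3 in Mbnl1 KO. Muscle fibre markers had the most tags in the tissue check, but their list was also the longest. The most tagged single marker was of fibroblasts, with 578 tags over both tables, against 466 for the most tagged muscle marker. All 8 muscle markers had mRNA tags (344 WT and 1179 Mbnl1 KO), and so had all 4 fibroblast markers (146 and 654), while 3 of 4 endothelial markers had 15 and 59 tags. Macrophage markers had 2 and 8 tags, adipocyte markers 3 and 33, neuron and Schwann cell markers 0 and 5, and erythroid markers 5 and 4. Scaled to the totals above, the Mbnl1 KO/WT ratio was 1.65 for muscle markers (1.46 to 1.86), 2.15 for fibroblast markers (1.80 to 2.59), 1.89 for endothelial markers (1.06 to 3.59) and 5.29 for adipocyte markers (1.66 to 26.9), and the part of the other cell types in the results was not tested. In whole muscle, fewer cells of a type and less RNA per cell cannot be told apart. RNA abundance was not analysed here, so a tag number joins how much of an RNA was present with how much of it was crosslinked.

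5′UTRs carried the lowest density of tags among the exonic regions of mRNAs. Their density was 0.105 tags per kb in the WT table and 0.272 tags per kb in the Mbnl1 KO table, over 5728 kb. The density of the CDS was 1.42-fold that of 5′UTRs in WT and 2.07-fold in Mbnl1 KO, and the density of 3′UTRs was 4.93-fold and 8.09-fold. Introns lay lower, and the 5′UTR density exceeded the intron density by 2.23-fold in WT and 2.53-fold in Mbnl1 KO.

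Of the tags left after the filter on single bases, 5′UTRs took 0.320% in WT (interval 0.295 to 0.346) and 0.397% in Mbnl1 KO (0.378 to 0.417). The Mbnl1 KO/WT ratio of these shares was 1.24 (1.13 to 1.37). It was smaller than the ratio of the CDS, at 1.81 (1.76 to 1.87), and of 3′UTRs, at 2.04 (2.0 to 2.07), and the intervals did not overlap. It was larger than the ratio of introns, at 1.09 (1.08 to 1.10). The direction depended on what the tags were divided by. Within the tags of mRNA exons, 5′UTRs made up 3.09% in WT (604 of 19534 tags, 2.85 to 3.34) and 1.97% in Mbnl1 KO (1560 of 79217 tags, 1.87 to 2.07), a ratio of 0.637 (0.579 to 0.701). The 5′UTR tags of Mbnl1 KO were therefore more numerous relative to the tags left after the filter and fewer relative to the tags of mRNAs.

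The opposite strand of the same bases was counted for comparison. It carried 353 WT tags and 636 Mbnl1 KO tags, with a ratio of 0.866 (0.759 to 0.989). Divided by mRNA tags, the ratio was 0.444 (0.389 to 0.507) on the opposite strand and 0.637 on the sense strand, so both then lay below 1. Of the tags on either strand of 5′UTR bases, 63.1% were sense in WT (59.97 to 66.2) and 71% in Mbnl1 KO (69.1 to 72.9). The sense share was 83.2% and 91.3% in the CDS and 93.8% and 96.9% in 3′UTRs. The sense share was thus lower in 5′UTRs than in the other exonic regions, and lower in the WT than in the Mbnl1 KO table. Transcription of the opposite strand near promoters was not tested.

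**Figure D1:**
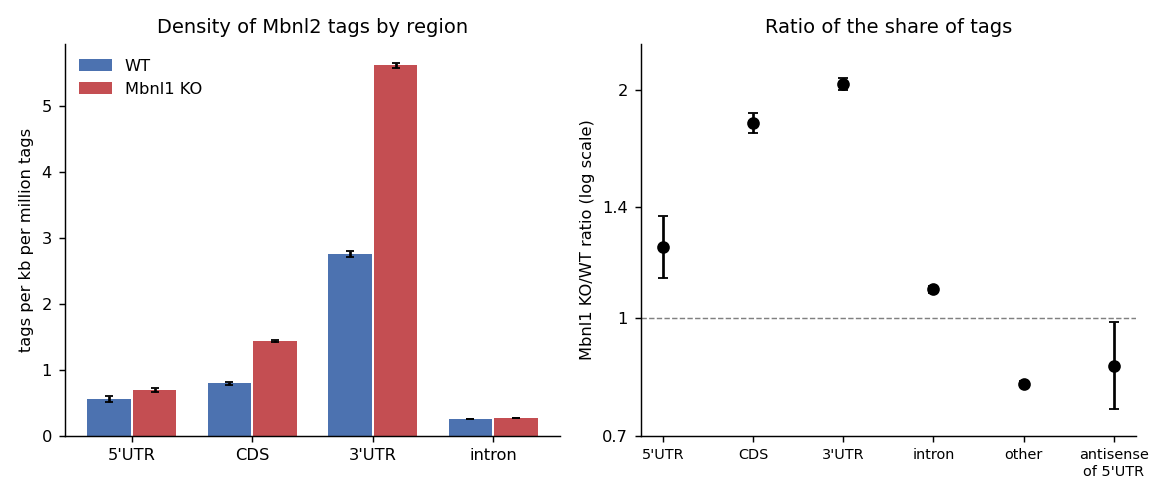
Left, Mbnl2 tags per kb per 1000000 tags of the table in 5′UTRs, CDS, 3′UTRs and introns of WT and Mbnl1 KO muscle, and right, the Mbnl1 KO/WT ratio of the share of tags on a log scale. Error bars are 95% intervals of the counts. The 5′UTR ratio of 1.24 lies between those of introns and the CDS, and the antisense strand lies below 1.

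The 5′UTR tags were spread thinly over genes. Of the 996 genes, 619 (62.1%) had a single tag, 299 had 2 to 4, 57 had 5 to 9 and 21 had at least 10. The 15 genes with the most tags held 337 of the 2164 tags, or 15.6%. The 3′UTR was also tagged in 581 of the 996 genes and the CDS in 494, while 292 genes had tags in the 5′UTR alone.

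Longer 5′UTRs were tagged more often. The median 5′UTR length was 488.5 bases in genes with a tag and 182 bases in those without. The share of genes with a tag was 0.883% at up to 100 bases, 2.38% above that and up to 200, 5.28% up to 400, 9.87% up to 800 and 19.7% above 800 bases. Per kb the differences were smaller, and the density was between 0.0675 and 0.123 tags per kb in WT and between 0.183 and 0.367 in Mbnl1 KO over these length classes.

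Only 7 genes reached 20 tags over both tables, the minimum for the summary of ratios over genes. Their median Mbnl1 KO/WT ratio was 1.85, and the ratios ran from 0.641 to 3.04. Of the 7, 6 lay above 1, 3 were at least 2-fold higher and 0 were at least 2-fold lower. Among the 5′UTRs, CDS and 3′UTRs of all genes with that many tags, 58.8% were at least 2-fold higher (595 of 1012), against 42.9% of the 7 5′UTRs. The CDS (154 genes) and 3′UTRs (851 genes) both had a median ratio of 2.21. Divided by mRNA tags, the 5′UTR median was 0.951.

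Ptp4a2, which encodes a prenylated protein tyrosine phosphatase, had the most 5′UTR tags, with 14 in WT and 54 in Mbnl1 KO. The tags ran from base 129516225 to 129516746 of chromosome 4, in the second exon of its reference transcript, over 50 distinct positions, and included the 3 windows printed above. The ratio was 1.85 (1.02 to 3.61), the interval just clearing 1, and it was 0.951 when divided by mRNA tags. The CDS of Ptp4a2 held 8 WT and 24 Mbnl1 KO tags and its 3′UTR 11 and 42, so that 44.4% of the mRNA tags of this gene lay in its 5′UTR. Over all genes that share was 2.19%.

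Atp2a1 encodes the sarcoplasmic reticulum calcium pump of fast fibres (Serca1). Its 186-base 5′UTR held 8 WT and 21 Mbnl1 KO tags, with a ratio of 1.26 (0.537 to 3.29), and its density of 156 tags per kb over both tables was the highest of the 15 genes. The ratio lay on the other side of 1 at 2 or more reads (0.675) and with mRNA tags as the total (0.647), and it was 0.995 with identical positions collapsed. None of these 29 tags had YGCY in the 31-base window around its midpoint. The 5′UTR held 6.76% of the mRNA tags of Atp2a1, the CDS 61 WT and 189 Mbnl1 KO tags, and the 3′UTR 30 and 120.

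Actn2 and Myot, which encode proteins of the Z-disc, were among the 15 genes. Actn2, the actin cross-linker α-actinin 2, had 3 WT and 19 Mbnl1 KO tags, and a ratio of 3.04 with a wide interval (0.896 to 16.1), which was 1.99 with shared 5′ ends merged. The ratio of Actn2 was 5.98 (1.61 to 33.0) with thinned Mbnl1 KO reads, 4.52 (1.33 to 23.8) over all tags and 1.56 (0.460 to 8.24) divided by mRNA tags. Its main site lay 37 bases from the start codon, and 81.8% of its tags had YGCY nearby. The CDS of Actn2 held 1 WT and 31 Mbnl1 KO tags. Myot, the Z-disc protein myotilin, had 4 and 15 tags, and a ratio of 1.80 (0.574 to 7.46). Of its tags, 42.1% lay on bases intronic in another transcript, and the ratio was 4.81 (0.684 to 209) without those bases, 3.64 with thinned Mbnl1 KO reads and 0.925 with mRNA tags as the total.

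Txlnb, a muscle-enriched member of the taxilin family, had 9 WT and 12 Mbnl1 KO tags and the lowest ratio of the 7 genes, at 0.641 (0.248 to 1.72). It was 0.329 (0.127 to 0.884) when divided by mRNA tags and 1.25 (0.408 to 3.72) with thinned Mbnl1 KO reads. All of its 21 tags had YGCY nearby, and the main site was the TGCT-rich window printed above, 107 bases from the start codon. Txlnb had 97.2 tags per kb, and 55.3% of its mRNA tags lay in the 5′UTR.

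Dlgap4 (a scaffold protein of synapses), 2500003M10Rik and Fam193b completed the 7. Dlgap4 had 4 WT and 25 Mbnl1 KO tags, and a ratio of 3.00 (1.04 to 11.9), which was 1.74 (0.538 to 7.33) with identical positions collapsed and 1.63 (0.494 to 6.94) with shared 5′ ends merged. 2500003M10Rik had 4 and 21 tags, and a ratio of 2.52 (0.852 to 10.1), which was 1.61 and 1.63 under those settings. With thinned Mbnl1 KO reads the ratios were higher, at 5.74 (1.83 to 23.7) for Dlgap4 and 3.79 (1.10 to 16.5) for 2500003M10Rik. Fam193b had 5 and 19 tags, and a ratio of 1.83 (0.660 to 6.26), which was 0.964 with identical positions collapsed, 0.761 with shared 5′ ends merged and 4.05 at 2 or more reads. In 2500003M10Rik 96.0% and in the others all of the tags lay on bases that are intronic in another protein-coding transcript, so mRNA and unspliced RNA cannot be told apart there. The CDS and 3′UTR of Dlgap4 together held 1 WT and 0 Mbnl1 KO tags.

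The remaining genes of the top 15 had 10 to 18 tags. Atf5, a stress-response transcription factor whose own translation is set by upstream reading frames, had 4 WT and 14 Mbnl1 KO tags, and a ratio of 1.68 (0.528 to 7.02), and 88.9% of them had YGCY nearby. Igf2, the growth factor, had 1 and 14 tags, all on bases intronic in another transcript. Fam57b had 2 and 10 tags, likewise all on such bases, BC005537 had 2 and 9 (72.7% on such bases), and Atp1b2, a subunit of the sodium pump, had 3 and 7. Gm10925 had 1 and 16 tags, but all 17 have the same bases as the mitochondrial genome, so its tags cannot be assigned to the nuclear gene. No other 5′UTR tag matched the mitochondrial genome over its whole length. Of these 15 genes, the interval excluded 1 at 4, namely Ptp4a2, Dlgap4, Gm10925 and Igf2. Among the 5′UTRs, CDS and 3′UTRs of all genes with at least 10 tags, the interval excluded 1 in 32.2% (662 of 2054). Gm10925 and Igf2 rest on 1 WT tag each. These calls depended on the setting. None of the 4 intervals excluded 1 when tags sharing a 5′ end were merged, at 2 or more reads (where Igf2 had no WT tag left) or divided by mRNA tags, and 1, that of Gm10925, did so with identical positions collapsed.

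**Figure D2:**
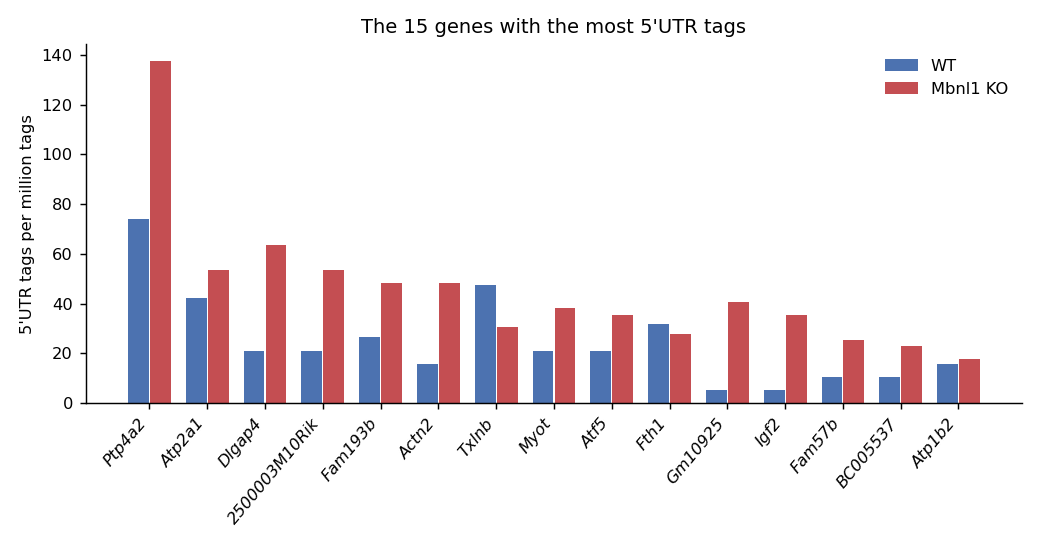
Tags of the 15 genes with the most 5′UTR tags, per 1000000 tags of each table, for WT and Mbnl1 KO, with 1 merged table per genotype and no error bars. Ptp4a2 stands above the other genes in both tables, and on this scale Txlnb and Fth1 are higher in WT.

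Fth1, the ferritin heavy chain, has a known regulatory stem-loop in its 5′UTR, the iron-responsive element, with CAGUG at the start of its loop. It had 6 WT and 11 Mbnl1 KO tags in a 167-base 5′UTR, a ratio of 0.881 (0.299 to 2.90), and 94.1% of them had YGCY nearby. The ratio was 0.452 with mRNA tags as the total, and it lay above 1 over all tags or with single-base tags kept (1.31 in both), with thinned Mbnl1 KO reads (1.29) and without scaling (1.83). CAGTG, searched on the sense strand, occurred once in the part of this 5′UTR that was searched and in 3.67% of all 30-base windows centred on 5′UTR bases. It is shown, with the tallest tag site of Fth1, to place the tags against it (chromosome 19, plus strand, mm9). Capitals mark CAGTG in the upper sequence and YGCY in the lower.
Fth1 loop, chr19:10057222-10057251: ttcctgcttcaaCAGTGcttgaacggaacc
Fth1 tag site, chr19:10057273-10057302: ccCGCCggcCGCTtcgagcctgagcccttt
The CAGTG starts 42 bases from the annotated 5′ end. The tags covered bases 72 to 173 from that end, and 0 of the 17 contained CAGTG, so the tags of Fth1 lay downstream of the loop, the last of them reaching past the start codon.

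The 3 Mbnl genes themselves had few 5′UTR tags. Mbnl1 had 5 in WT and 2 in Mbnl1 KO, a ratio of 0.192 (0.0183 to 1.17), and all 7 had YGCY nearby and lay on bases intronic in another transcript. Its 3′UTR held 55 and 277 tags. Mbnl2 had 2 and 2 5′UTR tags against 5 and 56 in its 3′UTR, and Mbnl3 had 0 in both tables in any mRNA region. A count of 0 allows up to 3 tags, or 15.9 per 1000000 WT tags. The position of the Mbnl1 deletion was not used here, so these counts do not check the genotype.

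Gene groups were described by their counts. Sarcomere genes had the densest 5′UTR tags, with 18 of 28 tagged, 28 WT and 70 Mbnl1 KO tags and 14.4 tags per kb over both tables, 38.2-fold the 0.378 of all 5′UTRs. The density went with that of the whole mRNA, because 5′UTRs made up 2.32% of the mRNA tags of sarcomere genes (1.89 to 2.82) and 2.19% of those of all genes. Actn2, Myot and Mylpf led the group, and Mylpf, the fast regulatory light chain, had 2 WT and 5 Mbnl1 KO tags. The ratio of the group was 1.20 (0.765 to 1.94).

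Excitation and calcium genes followed, with 4 of 20 tagged, 8 WT and 31 Mbnl1 KO tags and 6.20 tags per kb. Their ratio was 1.86 (0.838 to 4.69), and 29 of the 39 tags came from Atp2a1. 5′UTRs made up 3.67% of the mRNA tags of this group (2.62 to 4.99), against 2.19% of those of all genes. Pvalb, the calcium buffer of fast fibres, had 0 WT and 8 Mbnl1 KO tags, and the interval of its ratio, from 0.821 upward, included 1.

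Of the 84 ribosomal protein genes, 5 (5.95%, against 5.06% of all genes) were tagged, with 4 WT and 10 Mbnl1 KO tags and 0.690 tags per kb, 1.83-fold the density of all 5′UTRs. Their mRNAs had few tags of any kind, and 5′UTRs made up 7.57% of 185 mRNA tags (4.2 to 12.4). Rpl28 had 1 WT and 5 Mbnl1 KO tags, all on bases intronic in another transcript, with none in its CDS or 3′UTR, so mRNA and unspliced RNA cannot be told apart for these 6 of the group's 14 tags. Rpl39 had 2 and 2, and Rps9 had 0 and 2. Of the translation factors, 6 of 24 were tagged, with 3 and 10 tags and 1.45 tags per kb, 3.83-fold the density of all 5′UTRs. Pabpc1, the cytoplasmic poly(A)-binding protein, had 1 and 4 tags, Pabpc4 had 1 and 2, and Eif1, a factor in start codon selection, had 0 and 2.

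RNA-binding and splicing genes had 8 WT and 11 Mbnl1 KO tags in 6 of 27 genes, at 1.96 tags per kb, with a ratio of 0.661 (0.242 to 1.89). Khdrbs1 (Sam68, a splicing regulator) had 0 and 4. Energy metabolism genes had 4 and 6 tags in 7 of 20 genes, with 1 and 2 at the ATP synthase subunit gene Atp5a1, 1 and 1 at the citrate synthase gene Cs and 0 and 1 at the enolase gene Eno3. Muscle transcription factors had 3 and 6 tags in 4 of 16 genes, with 0 and 4 at Nfia, 2 and 0 at Mef2c and 1 and 1 at Nfix. All tags of Nfia and Nfix lay on bases intronic in another transcript. Of 16 protein turnover genes, Psma1, a proteasome subunit, was tagged, with 1 WT tag. The splicing targets named by the study had 18 WT and 29 Mbnl1 KO tags in 6 of 18 genes, with a ratio of 0.774 (0.416 to 1.48). Their Atp2a1, Mbnl1 and Mbnl2 tags are those given above. No group had an interval that excluded 1 when divided by all tags without single-base tags. Divided by mRNA tags, 3 groups did, with ratios of 0.616 for sarcomere genes (0.393 to 0.993), 0.339 for RNA-binding and splicing genes (0.124 to 0.971) and 0.397 for the splicing targets (0.213 to 0.760). The same scaling gave 0.637 for all 5′UTRs. 5′UTRs made up 0.873% of the mRNA tags of energy metabolism genes (0.420 to 1.60) and 0.837% of those of muscle transcription factors (0.384 to 1.58). The share was 0.199% for protein turnover genes (0.00503 to 1.10) and 1.59% for the splicing targets (1.17 to 2.11). It was 3.52% for translation factors and 1.76% for RNA-binding and splicing genes, with intervals that included the 2.19% of all genes.

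Within the 5′UTR, tags leaned towards the start codon. Positions were taken on the reference transcript of the gene (the longest CDS, then the longest 5′UTR), on which 502 of the 604 WT tags and 1183 of the 1560 Mbnl1 KO tags could be placed. The 5′UTR was split into 5 equal parts. The part next to the cap held 15.9% of the tags in WT (12.8 to 19.4) and 10.7% in Mbnl1 KO (9.03 to 12.6), where an even spread over the counted bases of the same 5′UTRs would give 20.5% and 20.2%. The part next to the start codon held 25.9% (22.1 to 29.96) and 28.0% (25.4 to 30.6) against 19.5% and 19.8%. Observed over evenly spread, the cap end was at 0.776 in WT and 0.532 in Mbnl1 KO and the start codon end at 1.33 and 1.41. A tag wholly inside the transcript cannot have its midpoint on the first bases after the cap. The even spread counted those bases, and their part in the lean was not tested.

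The lean was also seen without the most tagged genes. Without the 15 genes with the most tags, the start codon end held 24.9% of the WT and 26.6% of the Mbnl1 KO tags and the cap end 17.1% and 11.9%. Tags that also reached into the CDS were 38 in WT (6.29%) and 93 in Mbnl1 KO (5.96%), and their part in the lean was not tested. In 5′UTRs with more than 1 exon, the first exon held 58.3% of the tags in WT (51.4 to 64.9) and 45.1% in Mbnl1 KO (40.7 to 49.5), against 66.5% and 60.1% for an even spread.

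**Figure D3:**
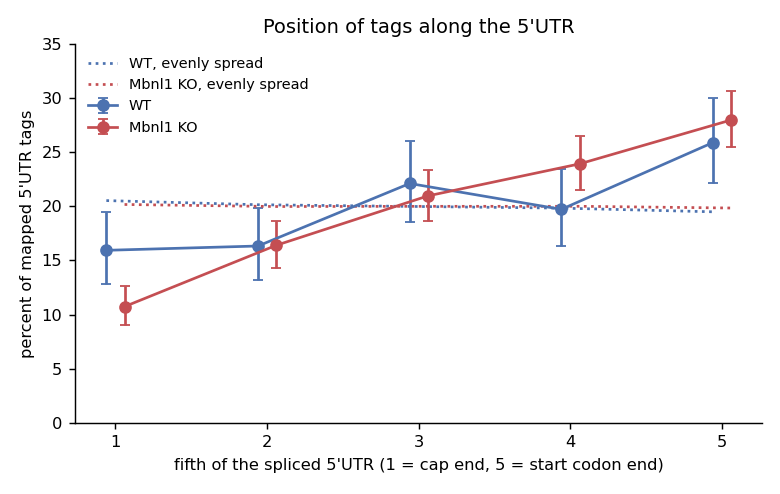
Percent of the placed 5′UTR tags in each of 5 equal parts of the spliced 5′UTR, from the cap end (1) to the start codon end (5), for WT (502 tags) and Mbnl1 KO (1183 tags), with 95% intervals of the counts. Dotted lines show tags spread evenly over the same 5′UTRs. The first part lies below and the last part above its line in both tables.

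YGCY was more frequent at 5′UTR tags than over the same 5′UTRs. The motif stood in the 31-base window around 55.3% of the tags in WT (51.2 to 59.3) and 62.0% in Mbnl1 KO (59.5 to 64.4). The mean over all bases of the 5′UTRs of the same genes, weighted by their tags, was 46.8% and 46.5%. The excess was 8.51 percentage points in WT (4.44 to 12.5) and 15.5 in Mbnl1 KO (13 to 17.9), so it was larger in the Mbnl1 KO table with this window. With a 51-base window it was 8.99 and 9.43, so the difference between the tables did not hold at that width. The reverse complement RGCR, where R is A or G, lay below its mean, with differences of -3.91 points in WT and -6.09 points in Mbnl1 KO.

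The excess in 5′UTRs was smaller than in 3′UTRs, where it was 31.1 points in WT and 30.2 in Mbnl1 KO. In the CDS it was 16.1 and 16.8 points, close to that of the Mbnl1 KO 5′UTRs. 5′UTRs started from a higher level, because their mean at the WT tags was 46.8%, against 36.3% in the CDS and 31.3% in 3′UTRs. Of all 31-base windows centred on 5′UTR bases of any gene, 42.5% hold YGCY. Windows with at least 2 matches made up 31.3% of the WT and 31.2% of the Mbnl1 KO tags of 5′UTRs, against means of 19% and 18.1%. Windows with at least 4 matches made up 5.96% and 5.19%, against 3.02% and 2.43%.

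**Figure D4:**
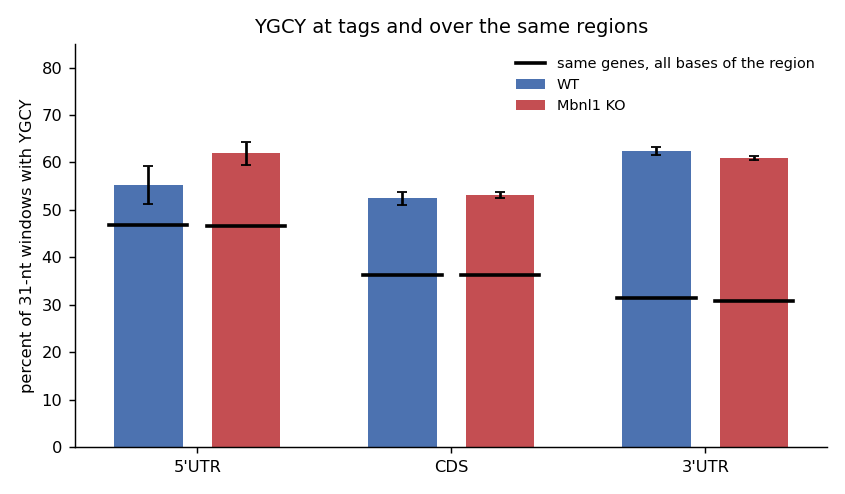
Percent of 31-base windows with YGCY at tags of 5′UTRs, CDS and 3′UTRs in WT and Mbnl1 KO muscle (bars, with 95% intervals of the counts) and the mean over all bases of the same regions of the same genes (black lines). All bars lie above their lines, and the gap is smallest in the WT 5′UTRs, at 8.51 points.

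The 4 forms of the motif were not alike. TGCT was 10.2 points above its mean in WT and 17.2 points in Mbnl1 KO, CGCT 5.13 and 8.43 points, and TGCC 4.01 and 3.03 points. CGCC was below its mean, at 16.1% of the WT tags against 19% and 17% of the Mbnl1 KO tags against 18.5%. The 2 forms that end in T thus stood out the most, and the most GC-rich form did not. GC content was 59.0% around the WT and 55.9% around the Mbnl1 KO tags, against means of 59.9% and 58.3%.

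The motif was centred on the tags. Within 10 bases of the midpoint a base was covered by YGCY in 16.1% of the WT and 17.2% of the Mbnl1 KO tags on average, and at 60 to 100 bases away in 9.73% and 8.75%. Tags of more than 1 read had a larger excess than tags of 1 read, with 10.5 against 7.17 points in WT and 17.5 against 12.2 in Mbnl1 KO. On the antisense strand of the same 5′UTR bases, 41.9% of the WT and 47.6% of the Mbnl1 KO tags had YGCY nearby, where all antisense windows gave 43.2%. The excess was also present on bases that are intronic in another transcript (12.1 and 17.7 points) and without those bases (6.98 and 14.4 points).

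**Figure D5:**
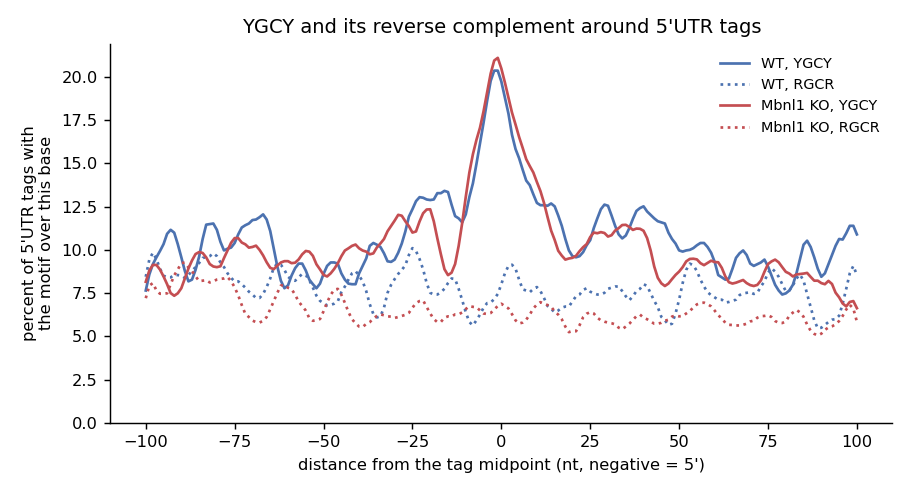
Percent of 5′UTR tags in which a base is covered by YGCY (solid) or by its reverse complement RGCR (dotted), by distance from the tag midpoint, smoothed over 5 bases, for WT (604 tags) and Mbnl1 KO (1560 tags). YGCY peaks at the midpoint in both tables and RGCR has no such peak.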

How the data were processed

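Mbnl2 HITS-CLIP tags of quadriceps muscle were analysed from 1 table per genotype. Quality-filtered reads had been aligned by the authors to mm9 with BWA (version not given in the sources used here), freed of likely PCR duplicates and merged over 3 mice. Each row is 1 unique tag, and its deposited value is a raw count of the reads that support it.

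Tags were assigned by midpoint and strand to GENCODE vM1 regions on NCBIM37 with pandas 2.3.3, numpy 2.4.6 and scipy 1.17.1 in Python 3.11.15, and plotted with matplotlib 3.10.9. Tags with at least 70% of 1 base were left out. Shares were divided by the 188766 WT and 392681 Mbnl1 KO tags that remained, a factor of 0.481 on the raw ratio, and these depths set the width of the intervals. Read numbers were used for tags of at least 2 reads and to thin the Mbnl1 KO reads. The summary of ratios over genes took genes with at least 20 tags, and ratios of named genes are also given below that. Motif means came from all bases of the same genes.

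The members and gene lists were chosen with earlier results of these data known. Named genes are the 15 with the most 5′UTR tags, the 5 highest and the 5 lowest ratios among genes with at least 20 tags (7 genes in all), the 3 most tagged of each list, Mbnl1, Mbnl2, Mbnl3 and the 10 tallest sites. A list member and the sequence of a site are not reported here. Dctn1, Spopl, Col3a1 and the Fth1 loop were added after the values were seen.

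On simulated counts of 750 genes for the ratio of 5′UTR tags, 200 of the genes tagged in the tables having been changed, 100.0% of the intervals contained the ratio used to simulate the gene. The counts were independent draws, mostly of few tags per gene with wide intervals, without spread between mice. They thus do not show how the intervals perform on the real tags. Alternatives were other totals, keeping single-base tags, tags of at least 2 reads, collapsed positions, thinned reads, other overlap rules, stricter annotation, other tag minimums and other motif windows. The ratio of 5′UTR tags within mRNA tags, the ratios of gene lists divided by mRNA tags, the strand share and the position along the 5′UTR were added after the data were seen.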

Additional observations from a re-analysis of the deposited data

How the results depend on the processing

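No paired analysis was possible because each genotype is 1 merged table, so no replicate could be left out either. The Mbnl1 KO/WT ratio of the 5′UTR share (1.24) fell below 1, to 0.637, only when divided by mRNA exon tags, which also put the median over genes (1.85) at 0.951 and Ptp4a2 at 0.951. Divided by all tags, the ratio was 1.84 and the median 2.75. Without scaling they were 2.58 and 3.86. With single-base tags kept they were 1.72 and 2.75, and with thinned Mbnl1 KO reads 1.72 and 3.13 (1 gene). The other alternatives gave ratios from 1.14 to 1.28. The median was 1.19 with collapsed positions (2 genes), 1.25 with collapsed 5′ ends (2 genes) and 2.52 with annotation levels 1 and 2. The 5′UTR share of tags was 0.179% in WT and 0.330% in Mbnl1 KO over all tags, 0.197% and 0.337% with single-base tags, 0.447% and 0.544% at 2 or more reads, 0.230% and 0.291% with annotation levels 1 and 2, 0.224% and 0.267% without bases intronic elsewhere, and 0.440% in Mbnl1 KO with any overlap. Within mRNA tags the ratio was 0.835 at 2 or more reads, 0.572 with thinned reads and 0.609 to 0.686 otherwise. The YGCY excess was 9.43 points in Mbnl1 KO with a 51-base window and between 15.8 and 17.8 with the other alternatives, and in WT it was between 8.47 and 11.5. At 2 or more reads the start codon end held 30.1% and 30.9%, and the sense share was 69.7% and 75.4%. It was 59.8% in WT with single-base tags. The causes were not tested. Of 183 alternative values over the 15 most tagged genes, 19 in 9 genes lay on the other side of 1. Of these, 6 came with mRNA exon tags as the total, at Ptp4a2, Atp2a1 (0.647), Fam193b (0.937), Myot (0.925), Atf5 (0.863) and Atp1b2 (0.575). Some ratios could not be given, as no WT tag or no base was left. These were Igf2 at 2 or more reads, Gm10925 with tags wholly inside, 5 genes without bases intronic elsewhere (Dlgap4, 2500003M10Rik, Fam193b, Igf2, Fam57b) and 5 with annotation levels 1 and 2 (Fam193b, Txlnb, Fth1, Gm10925, Fam57b). Depth limits most genes, because 619 of 996 had 1 tag and intervals at 20 tags spanned several fold.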

Other observations

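The ends of the 5′UTR tags differed between the tables. The last base of the tag was C or T in 54.8% of the WT and 67.4% of the Mbnl1 KO tags, and the base before the tag was C or T in 60.8% and 71.9%. The median tag length was 22 bases in WT and 25 in Mbnl1 KO, and 13.4% and 33.1% of the tags were 31 bases long. The 604 WT tags lay at 553 distinct positions and the 1560 Mbnl1 KO tags at 1183, and 40.7% and 61.6% of them had at least 2 reads, against 29.2% and 45.0% of all tags without single-base tags.

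Some sites outside the 15 most tagged genes had more WT than Mbnl1 KO tags. Mllt11 was among the 10 tallest sites, and the others were chosen after their values were seen. Dctn1, which encodes a dynactin subunit, had 7 WT tags and 1 Mbnl1 KO tag, none of them with YGCY nearby, all on bases intronic in another transcript. Mllt11 had 6 and 4 tags, Spopl had 6 and 3, and Col3a1, the fibrillar collagen of connective tissue, had 5 and 3 in the 5′UTR while its CDS had 4 and 90. Windows at the Dctn1 and Spopl sites share the run gggagga, and the Mllt11 window holds the run it shares with Fam193b. Whether these tags came from those genes was not tested.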
